A study of Mus musculus with 11 samples.

Results

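Integrins are cell surface receptors, each made of an alpha and a beta subunit, and transcripts of 10 subunits of vascular cells (Itga1, Itga3, Itga5, Itga7, Itga8, Itga9, Itgav, Itgb1, Itgb3 and Itgb5) were described in the aortic arch. The members were taken by gene symbol from the deposited table, and the list was made with earlier results of these data known. All 10 were present among the 48709 mouse genes of the count table, and all 10 passed the filter on low counts that left 14757 genes for testing. The samples are whole dissected arches of 11-day-old mice, 1 bulk RNA-seq library each. The 6 Het libraries came from mice that carry 1 mutant and 1 wild-type allele of Tgfbr2, a receptor chain for TGF-beta. The mutant allele holds the G357W substitution and models the second type of Loeys-Dietz syndrome, an inherited disorder with aneurysms of the aorta. The 5 WT libraries came from littermates with both alleles wild type, and the labels list no treatment for either group. The labels name vascular smooth muscle cells and endothelial cells, give no cell sort, and do not state sex or litter.

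In an integrin, the alpha subunit largely sets which matrix protein is bound and the beta subunit's short tail links to talin, kindlin and the actin cytoskeleton. Itgb1 is the common partner: alpha1 with beta1 binds collagen, alpha3 and alpha7 with beta1 bind laminin, and alpha5 with beta1 binds fibronectin. Alpha8 with beta1 binds nephronectin and other RGD proteins. Alpha9 with beta1 binds tenascin C and other ligands at sites without an RGD sequence. The alpha v chain pairs with beta1, beta3 or beta5, and integrins that hold it bind vitronectin and the latency peptide of TGF-beta. In the vessel wall, smooth muscle integrins hold the contractile cells to the elastic lamellae and the basement membrane.

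Total counts were 13162449 to 18883711 per Het library and 13113467 to 19327935 per WT library. All 8 of 8 markers of the labelled smooth muscle cells passed the filter, and their summed level was 30598 to 41656 CPM (reads scaled to library size, with TMM factors) in Het and 33729 to 38354 CPM in WT. The summed level of 8 endothelial markers was 432 to 705 CPM in Het and 444 to 585 CPM in WT. RNA of other cells was also present, brown and white fat markers among them (322 to 2065 CPM in Het and 759 to 2765 CPM in WT, summed over 6 genes). Xist, expressed from the inactive X chromosome, was at 74.4 and 77.6 CPM without TMM factors in Het 1 and Het 2, at most 0.75 CPM in Het 3 to 6, and at 58.8 to 80.1 CPM in WT. Ddx3y, a Y-linked gene, was at 88.2 to 108 CPM in Het 3 to 6 and at 0 in every other library, so no Y-positive WT library stands beside those 4 Het libraries. On the first principal component the Het libraries lay at 14.7 to 29.1 and the WT libraries at -49.7 to -2.15. WT 1 and WT 2, at -49.7 and -47.1, lay apart from the others on it. Tgfbr2 was at 39.0 ± 8.22 CPM in Het (SD, n = 6) and 41.3 ± 4.29 CPM in WT (SD, n = 5), and counts do not separate the alleles.

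A pair of subunits dominated the integrin transcripts of the arch. Divided by the length of all annotated exons, Itga8 was at 141 ± 7.94 CPM per kb in Het and 137 ± 7.88 CPM per kb in WT (SD, n = 6 and 5), and Itgb1 at 140 ± 7.81 and 131 ± 7.91 CPM per kb. These levels did not differ beyond their spread: Itga8 was above Itgb1 in 7 of 11 libraries. Itga9 came next, at 35.8 ± 2.47 CPM per kb in Het and 33.8 ± 3.05 CPM per kb in WT, below Itgb1 in all 11 libraries.

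The other beta chains followed. Itgb5 was at 21.3 ± 0.907 CPM per kb in Het and 23.0 ± 3.68 CPM per kb in WT, and it was above Itgb3 in all 11 libraries. Itgb3 was at 11.3 ± 1.11 CPM per kb in Het and 12.6 ± 2.03 CPM per kb in WT. Itga3, at 12.7 ± 1.97 CPM per kb in Het and 8.70 ± 1.53 CPM per kb in WT, overlapped Itgb3, which was the higher of the pair in 1 of 6 Het libraries and in 5 of 5 WT libraries.

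The least abundant chains per length were alpha chains. Itga5 was at 7.204 ± 1.09 CPM per kb in Het and 6.94 ± 0.959 CPM per kb in WT, and Itga7 at 4.90 ± 0.710 and 4.13 ± 1.08 CPM per kb. Itgav was at 3.505 ± 0.370 CPM per kb in Het and 3.33 ± 0.364 CPM per kb in WT, and Itga1, the collagen-binding chain, at 0.988 ± 0.110 and 0.885 ± 0.0647 CPM per kb. The libraries kept this order with few exceptions: Itga3 was above Itga5 in 10 of 11 libraries, Itga5 above Itga7 in 11, Itga7 above Itgav in 10 and Itgav above Itga1 in 11. The annotated exons of Itga1 add up to 18.6 kb, the longest of the 10.

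**Figure D1:**
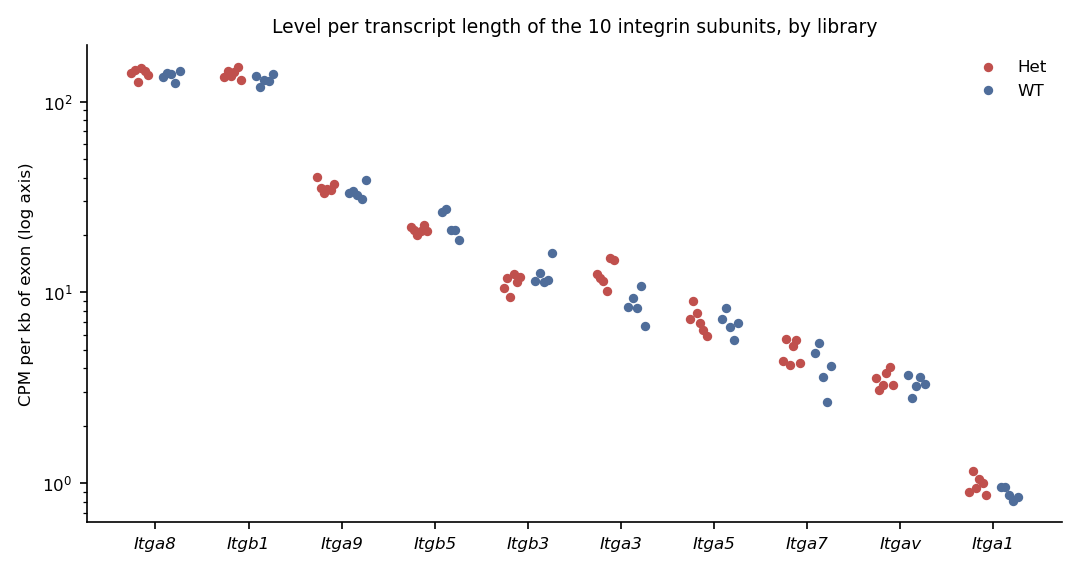
CPM per kb of annotated exon (log axis) of the 10 integrin subunits, 1 point per library, Het (6 libraries) left of WT (5 libraries) for each gene, ordered by the mean over all libraries. Itga8 and Itgb1 lie together at the top, near 140 CPM per kb in Het, and Itga1 at the bottom, near 0.988 CPM per kb in Het.

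Among the 7 alpha chains, Itga8 made up 68.4 ± 1.24 percent of the summed CPM per kb in Het and 70.4 ± 0.905 percent in WT, and Itga9 17.4 ± 1.10 and 17.3 ± 0.928 percent. Itga3 held 6.15 ± 0.940 percent in Het and 4.49 ± 1.00 percent in WT. These shares describe transcripts and not assembled heterodimers, and a rise of one share lowers the others.

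Of the 10 subunits, Itga3 was higher in Het and the other 9 did not pass the threshold of 0.05 on the adjusted p in the edgeR fit over all genes. Itga3, the laminin-binding alpha3 chain, was about 1.5-fold higher (log2 fold change 0.54 ± 0.13, SE). Over all genes tested, 742 of 14757 passed, which is 5.03 percent, with 2.65 percent higher in Het and 2.38 percent lower. At an unadjusted p of 0.05, 1 member of 10 passed, against 19.4 percent of all genes. For no member did the groups separate completely, where 4.61 percent of all genes had groups that did not overlap (2.41 percent with Het above WT). The median log2 fold change of the 10 was 0.076, beside -0.0046 for all genes. Of the 10, 8 had a positive fold change, against 49.2 percent of all genes. In bulk tissue, more cells of a type and more RNA per cell cannot be told apart.

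**Figure D2:**
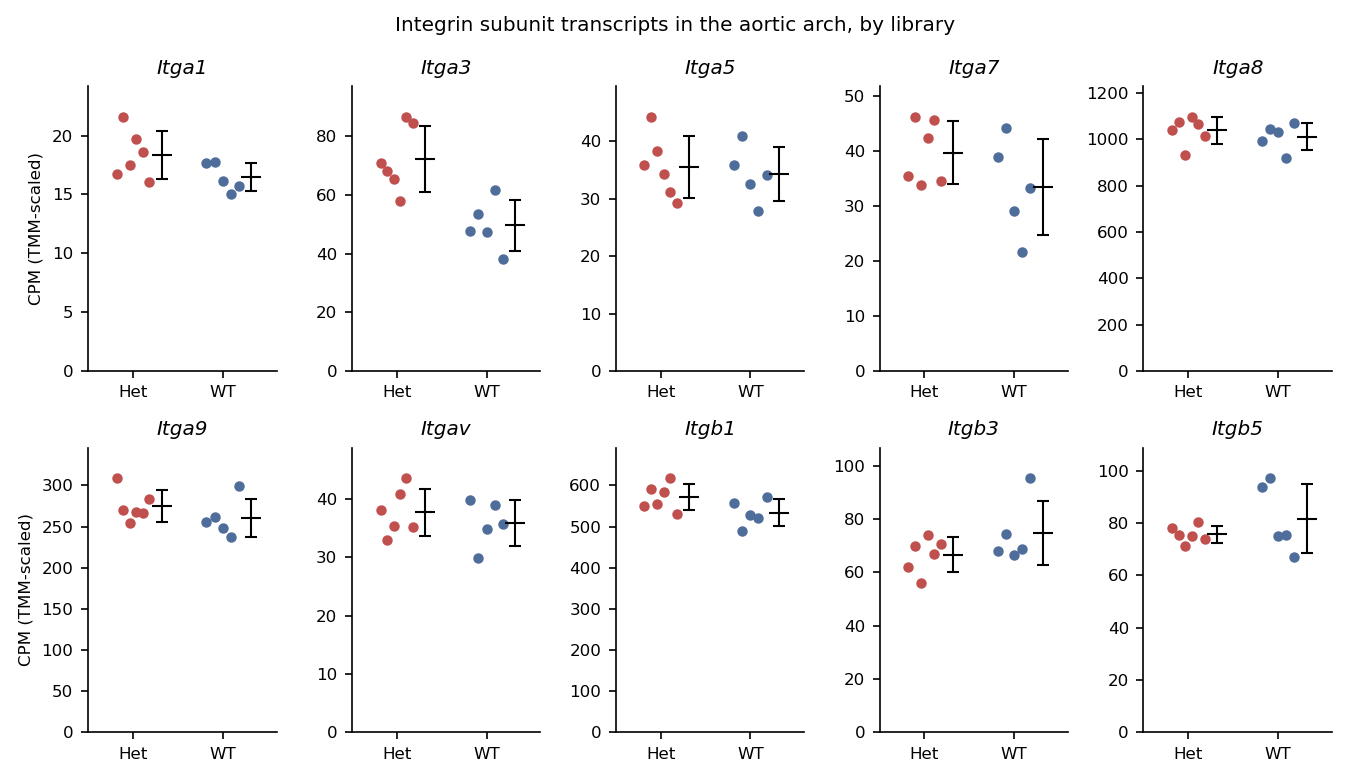
TMM-scaled CPM of each of the 10 integrin subunits by library, Het (6 libraries, red) left of WT (5 libraries, blue), with the group mean and SD as black bars and each axis starting at 0. Itga3 is the panel in which 5 of 6 Het points lie above every WT point, and Itgb3 shows 1 WT library at 95.4 CPM above the rest.

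The laminin receptors were taken first. Itga3 (ENSMUSG00000001507, a protein-coding gene on the minus strand of chromosome 11, 95044474 to 95076801 in GRCm38) was at 70.9, 68.3, 65.5, 57.8, 86.8 and 84.4 CPM in Het 1 to 6 and at 47.7, 53.7, 47.4, 61.7 and 38.0 CPM in WT 1 to 5. All Het libraries but Het 4 lay above the highest WT library, WT 4, and all WT libraries but WT 4 lay below the lowest Het library. The means were 72.3 ± 11.2 CPM in Het and 49.7 ± 8.71 CPM in WT (SD, n = 6 and 5), with an adjusted p of 0.0233 in edgeR and a 95 percent interval of 0.27 to 0.82 for the log2 fold change. Both Xist-positive Het libraries lay above all 5 WT libraries, which are Xist-positive too.

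Because Itga3 was the subunit that differed, its promoter is shown with those of Itga8, the most abundant alpha chain, and Itgb1, the partner of both. The windows run from 250 bases before to 50 bases after the transcript start in RefSeq on GRCm38.p6, and 8 of the 10 members had one; Itga7 and Itgb3 did not. Capitals mark matches on either strand to any of 6 motifs, none of which overlap in the 3 windows shown. The GC box, bound by Sp1, was searched as GGGCGG. The core motif that Smads bind, the transcription factors downstream of TGF-beta receptors, was searched as CAGAC. The motif of TEAD, the partner of Yap, was searched as GGAATG. The motif of AP-1, the dimers of Fos and Jun, was searched loosely as TGANTCA, where N is any base. The TATA box of core promoters was searched as TATAAA, and the CArG box, bound by serum response factor, by its consensus.
Itga3, chr11:95076665-95076964, minus strand: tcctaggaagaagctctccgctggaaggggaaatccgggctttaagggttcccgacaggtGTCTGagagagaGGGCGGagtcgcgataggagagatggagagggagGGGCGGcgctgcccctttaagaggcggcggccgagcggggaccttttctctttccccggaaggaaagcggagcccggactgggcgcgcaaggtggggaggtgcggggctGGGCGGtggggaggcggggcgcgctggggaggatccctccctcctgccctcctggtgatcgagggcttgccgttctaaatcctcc
Itga8, chr2:12301895-12302194, minus strand: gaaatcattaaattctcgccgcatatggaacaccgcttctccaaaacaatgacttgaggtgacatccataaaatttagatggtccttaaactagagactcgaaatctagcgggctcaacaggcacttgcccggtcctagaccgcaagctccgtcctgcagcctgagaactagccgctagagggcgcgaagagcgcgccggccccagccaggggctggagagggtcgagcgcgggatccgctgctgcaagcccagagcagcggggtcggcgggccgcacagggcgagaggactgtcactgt
Itgb1, chr8:128685404-128685703, plus strand: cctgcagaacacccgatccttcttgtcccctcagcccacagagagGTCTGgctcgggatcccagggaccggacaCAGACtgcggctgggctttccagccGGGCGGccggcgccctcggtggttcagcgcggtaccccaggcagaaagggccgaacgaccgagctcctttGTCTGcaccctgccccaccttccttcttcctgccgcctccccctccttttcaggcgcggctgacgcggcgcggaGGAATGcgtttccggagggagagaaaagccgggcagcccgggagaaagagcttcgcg

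The Itga3 window held 3 GC boxes and 1 CAGAC match, the Itgb1 window 1 GC box, 3 CAGAC matches and 1 GGAATG match, and the Itga8 window none of the motifs. Among 32851 promoter windows of the same length, 35.7 percent held a GC box, 49.6 percent the CAGAC motif, 14.7 percent the TEAD motif, 7.81 percent the AP-1 motif, 13.6 percent the TATA box and 1.63 percent a CArG box. RefSeq lists a second start of Itga3 inside the gene, with a window at chr11:95069149-95069448. That window held 1 GC box and 1 match to TGANTCA, which reads TGAATCA. The GC content was 66.7 percent in the first Itga3 window, 59.0 percent in that of Itga8 and 67.3 percent in that of Itgb1. The median over all windows was 52.7 percent, and the shares above count windows with at least 1 match. Counts per gene do not tell the starts apart, and a letter match is not a site of binding.

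Across 26 alternative fits the call of Itga3 was lost in 10, while the difference stayed above 0 (log2 0.35 to 0.63). It was 0.46 to 0.63 on the log2 scale when any 1 library was left out, and the call was lost without WT 1, WT 3, Het 5 or Het 6 (adjusted p = 0.0506, 0.0597, 0.0559 and 0.0548 by edgeR). With a sex score as covariate it was 0.47 ± 0.18 (adjusted p = 0.324), and in the Xist-positive libraries alone, 2 Het against 5 WT, 0.49 ± 0.17 (adjusted p = 0.386). The column names hold a 6 or a 7 whose meaning the labels do not give, and 4 of 6 Het and 1 of 5 WT columns hold the 6. A fit with that digit as covariate gave 0.58 ± 0.15 (adjusted p = 0.0539), and without WT 1 and WT 2 it was 0.56 ± 0.16 (adjusted p = 0.0733).

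Some markers of other cells differed between the groups. The summed level of 8 skeletal muscle markers was 8.88 to 17.1 CPM in Het and 21.3 to 43.3 CPM in WT, without overlap; 4 of the 8 passed the filter on low counts, of which 2, Tnnt3 and Tnni2, were lower in Het. Most of that sum was Tnnt3, at 8.76 CPM in Het and 27.0 CPM in WT on average. The other 2 tested did not pass and had positive log2 fold changes, 0.55 for Acta1 and 0.07 for Mylpf. With the skeletal muscle score as a covariate the Itga3 difference was 0.35 ± 0.22 (adjusted p = 0.538 by edgeR), and 64 genes passed in that fit. The score is a mean of log values and, unlike the sum, overlapped between the groups (0.042 to 0.606 in Het and 0.580 to 0.890 in WT). The overlap came from Het 2, at 0.606, and WT 1, at 0.580, and the next highest Het score was 0.322. The score thus nearly followed the groups, and that fit cannot well separate it from genotype. The summed level of 6 cartilage markers was 6.47 to 10.3 CPM in Het and 12.0 to 16.7 CPM in WT, with Matn1 at 0 in every library; of the 3 tested, Sox9 was lower. Of 8 tested fibroblast markers, 2 were lower, Mfap5 (-0.70 ± 0.10) and Pi16 (-0.62 ± 0.10), with a median log2 fold change of -0.11 over the list. Of 8 smooth muscle markers, 1 was lower, Cnn1 (-0.51 ± 0.13, adjusted p = 0.0346). Over all genes tested, 2.38 percent were lower in Het. Of 8 endothelial markers none passed and 6 had positive values, with a median log2 fold change of 0.27. An unadjusted p under 0.05 by edgeR was found for 2, beside 19.4 percent of all genes. Pecam1, the largest part of the endothelial sum, was at 243 CPM in Het and 296 CPM in WT on average. The part of the cartilage, fibroblast, smooth muscle and endothelial markers in the Itga3 result was not tested.

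**Figure D3:**
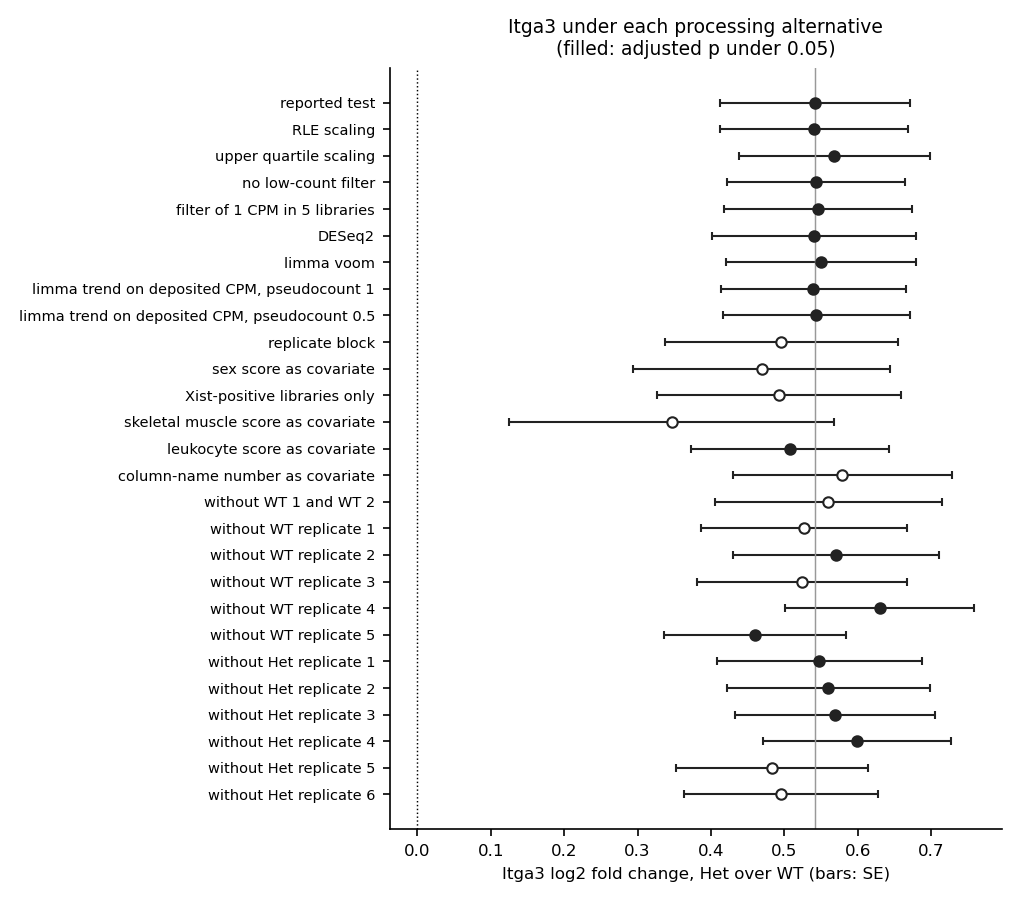
Log2 fold change of Itga3, Het over WT, with its SE under the reported test and 26 alternatives, filled where the adjusted p is under 0.05. Every value lies above 0, from 0.35 with the skeletal muscle score to 0.63 without WT 4, and 10 of the 26 alternatives have open symbols.

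Itga7 (ENSMUSG00000025348, plus strand of chromosome 10, 128933818 to 128958282), the laminin-binding chain of muscle, had a lowest, median and highest level of 33.8, 38.8 and 46.3 CPM in Het, and was at 38.9, 44.2, 29.0, 21.6 and 33.3 CPM in WT 1 to 5. The groups overlapped, and 3 WT libraries lay below all Het libraries. The log2 fold change was 0.25 ± 0.16 (adjusted p = 0.430 by edgeR), with a 95 percent interval of -0.09 to 0.58, the widest reach among the 9 that did not pass. Over the alternatives it was 0.12 to 0.50, highest without WT 1 and WT 2, and did not pass in any. Its exons overlap those of Mettl7b on the other strand, and the libraries do not mark strand; Mettl7b was at most 0.0739 CPM.

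The collagen receptor chain Itga1 (ENSMUSG00000042284, minus strand of chromosome 13, 114953096 to 115101964) had a lowest, median and highest level of 16.0, 18.04 and 21.6 CPM in Het, against 17.7, 17.8, 16.1, 15.1 and 15.7 CPM in WT 1 to 5. The groups overlapped, though 3 Het libraries lay above every WT library. Its log2 fold change was 0.16 ± 0.11 (adjusted p = 0.492, 95 percent interval -0.08 to 0.40). Its counts were the lowest of the 10, 205 to 343 per library. Exons of the protein-coding gene Gm49395 overlap those of Itga1 on the same strand. Gm49395 is not among the genes counted, and how reads in shared exons were counted is not stated.

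Among the members that form receptors of fibronectin, nephronectin and other RGD ligands, none passed. Itga8 (ENSMUSG00000026768, minus strand of chromosome 2, 12106632 to 12301922) had a lowest, median and highest level of 935, 1055 and 1099 CPM in Het, and was at 992, 1046, 1032, 921 and 1069 CPM in WT 1 to 5. The groups spanned nearly the same range. Het over WT gave 0.04 ± 0.07 on the log2 scale (adjusted p = 0.838), and its 95 percent interval, -0.12 to 0.19, was among the narrowest of the members. Exons of the antisense gene E030013I19Rik overlap it; reads counted there were 63.0 to 109 CPM, with no detected difference (adjusted p = 0.992).

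Itga5 (ENSMUSG00000000555, minus strand of chromosome 15, 103344286 to 103366763), the classical fibronectin receptor chain, had a lowest, median and highest level of 29.3, 35.1 and 44.3 CPM in Het, against 35.9, 40.9, 32.5, 27.9 and 34.1 CPM in WT 1 to 5. Its range in Het held 4 of the 5 WT libraries. On the log2 scale the difference was 0.05 ± 0.12 (adjusted p = 0.872, 95 percent interval -0.21 to 0.31).

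Itga9 (ENSMUSG00000039115, plus strand of chromosome 9, 118606690 to 118901003), the chain that binds tenascin C, had a lowest, median and highest level of 254, 269 and 309 CPM in Het, and was at 256, 261, 248, 238 and 299 CPM in WT 1 to 5. Het 1 and WT 5 were the high libraries of their groups. Between groups the log2 fold change was 0.08 ± 0.08 (adjusted p = 0.652, 95 percent interval -0.09 to 0.25). Tnc, which encodes that ligand, was at 156 ± 32.4 CPM in Het and 53.3 ± 7.83 CPM in WT.

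Itgav (ENSMUSG00000027087, plus strand of chromosome 2, 83724397 to 83806916), whose product holds latent TGF-beta, had a lowest, median and highest level of 33.0, 36.7 and 43.6 CPM in Het, against 39.8, 29.9, 34.9, 38.9 and 35.7 CPM in WT 1 to 5. Het 4 and Het 5 lay above the WT range. Its log2 fold change was 0.07 ± 0.10 (adjusted p = 0.768, 95 percent interval -0.15 to 0.29), and its sign turned with the sex score, in the Xist-positive libraries and with the skeletal muscle score, without a call. Exons of Gm13684 overlap it on the other strand, at 1.44 to 6.22 CPM.

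The beta3 and beta5 chains, partners of alpha v beside beta1, had lower means in Het, without passing. Itgb3 (ENSMUSG00000020689, plus strand of chromosome 11, 104608000 to 104670476) had a lowest, median and highest level of 56.0, 68.3 and 74.0 CPM in Het, and was at 67.9, 74.4, 66.6, 68.9 and 95.4 CPM in WT 1 to 5. WT 5 stood above all other libraries. The log2 fold change was -0.16 ± 0.11 (adjusted p = 0.431, 95 percent interval -0.39 to 0.06), and it was -0.06 without WT 5. Itga2b, the platelet partner of Itgb3, was at 4.63 CPM in WT 5, within the 3.01 to 5.36 CPM of the other WT libraries.

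Itgb5 (ENSMUSG00000022817, plus strand of chromosome 16, 33829665 to 33949338) had a lowest, median and highest level of 71.3, 75.3 and 80.6 CPM in Het, against 93.9, 97.3, 75.2, 75.5 and 67.1 CPM in WT 1 to 5. WT 1 and WT 2 were the highest of all libraries and WT 5 the lowest. The log2 fold change was -0.11 ± 0.10 (adjusted p = 0.597, 95 percent interval -0.32 to 0.10), and it was 0.06 without WT 1 and WT 2. The coefficient of variation was 4.25 percent in Het and 16.0 percent in WT.

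Itgb1 (ENSMUSG00000025809, plus strand of chromosome 8, 128685654 to 128733200), the common beta chain, had a lowest, median and highest level of 531, 569 and 618 CPM in Het, and was at 558, 489, 528, 522 and 571 CPM in WT 1 to 5. Het 2, Het 4 and Het 5 lay above the WT range. The difference was 0.10 ± 0.07 on the log2 scale (adjusted p = 0.50, 95 percent interval -0.05 to 0.25).

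**Figure D4:**
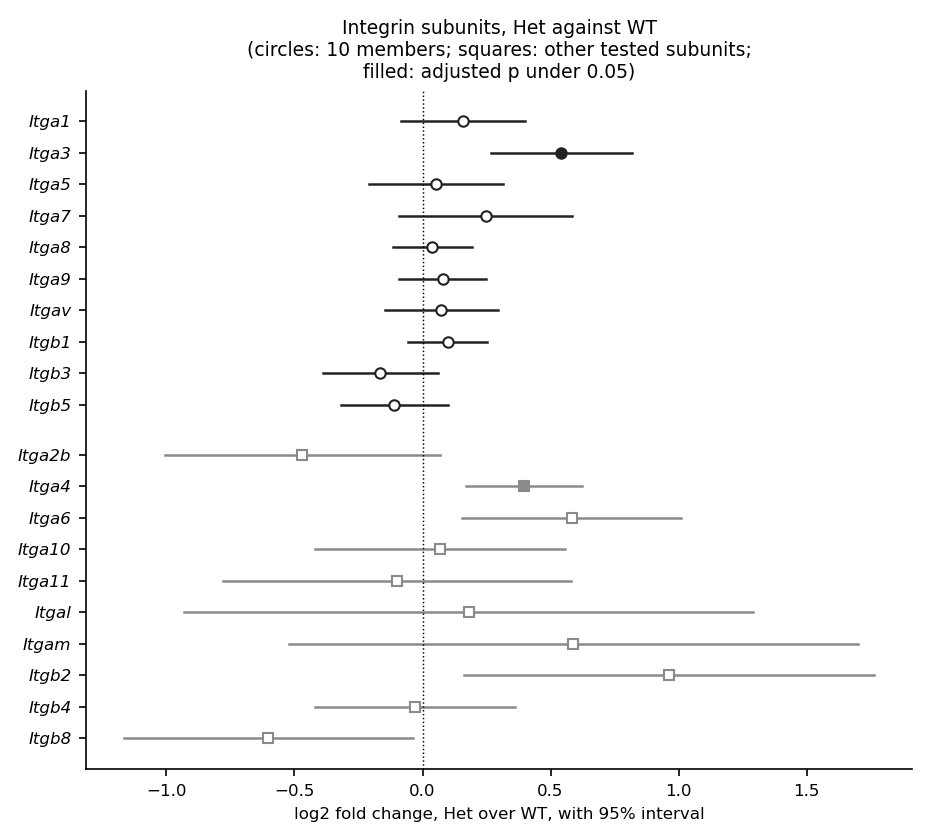
Log2 fold change of Het over WT with its 95 percent interval for the 10 members (circles) and the other 10 tested integrin subunits (squares), filled where the adjusted p is under 0.05. Itga3 (0.54) and Itga4 (0.40) are filled, and the widest intervals belong to Itgal, Itgam and Itgb2.

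The balance between chains was compared within each library, where a ratio does not depend on the scaling. The ratio of Itgb1 to the sum of the 7 alpha chains, both per kb, was 0.639 to 0.725 in Het and 0.591 to 0.713 in WT. Its difference on the log2 scale was 0.02 (exact permutation test over the 11 libraries, two-sided, p = 0.732, and 0.931 after Benjamini-Hochberg adjustment over 3 ratios). The ratio of Itgb3 to Itgb5, whose products both pair with alpha v, was 0.473 to 0.595 in Het and 0.435 to 0.856 in WT. WT 5 was at the top of the WT range. The difference between groups was -0.06 (exact permutation p = 0.771, adjusted 0.931). The ratio of Itga5 to Itga8 was 0.0431 to 0.0616 in Het and 0.0453 to 0.0583 in WT (difference 0.01, exact permutation p = 0.931, adjusted 0.931). No difference was detected in any of the 3, where the smallest p possible was 0.00433.

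The other integrin subunits were mostly of low abundance. Of 17 listed, 7 (Itga2, Itgad, Itgae, Itgax, Itgb2l, Itgb6 and Itgb7) were below the filter on low counts. Of the 10 tested, 1 was higher, none was lower and 9 did not pass, with a median log2 fold change of 0.12. Over all genes tested, 2.65 percent were higher and 2.38 percent lower. Itga4, which pairs with beta1 and binds VCAM-1 and fibronectin, was at 32.3, 33.1, 30.2, 32.5, 36.1 and 38.4 CPM in Het 1 to 6 and 29.3, 27.9, 21.6, 25.9 and 23.6 CPM in WT 1 to 5. The groups did not overlap, as was so for 4.61 percent of all genes. The log2 fold change was 0.40 ± 0.11 (adjusted p = 0.0426 by edgeR), and it passed in 10 of 26 alternatives. The call was lost when any 1 library other than WT 1 or Het 3 was left out (adjusted p up to 0.111). With the sex score the log2 fold change was 0.34 (adjusted p = 0.411). The call was also lost in the Xist-positive libraries (adjusted p = 0.539 by edgeR) and without the low-count filter. So it was with the skeletal muscle score, the leukocyte score, the replicate number or the digit of the column names as covariate.

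Itga6, a laminin-binding chain like Itga3 and Itga7, was at 14.2 ± 2.88 CPM in Het and 9.47 ± 2.81 CPM in WT, with a log2 fold change of 0.58 ± 0.20 (adjusted p = 0.113). It passed under 1 of 26 alternatives, with the leukocyte score as covariate.

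Among the ligands, of 13 tested collagen and laminin chains, 5 were higher, 1 was lower and 7 did not pass. The shares over all genes were 2.65 percent higher and 2.38 percent lower. The median log2 fold change of these chains was 0.34. The higher ones were Lama5 (0.91 ± 0.09, adjusted p = 1.53e-05), Col4a2 (0.84 ± 0.08), Col4a1 (0.60 ± 0.08), Lamb1 (0.60 ± 0.16) and Lamc1 (0.34 ± 0.09). Lama5, Lamb1 and Lamc1 encode the chains of laminin 511, a ligand of alpha3 with beta1. Lama2, the laminin chain of muscle basement membrane, was lower (-0.39 ± 0.09, adjusted p = 0.0251). With the sex score Lamb1, Lamc1 and Lama2 were at 0.82, 0.39 and -0.37. Their calls were lost in that fit (adjusted p = 0.0796, 0.208 and 0.320 by edgeR). In the Xist-positive libraries these 3 calls were lost too (adjusted p = 0.105, 0.419 and 0.505 by edgeR). So they were with the skeletal muscle score, the replicate number or the digit of the column names as covariate. The calls of Lamb1 and Lamc1 were each lost when any 1 of 7 single libraries was left out (WT 1, WT 2, WT 3 or Het 1 to 4), with adjusted p up to 0.0914 and 0.0851, and that of Lama2 without WT 1, WT 5, Het 2, Het 4 or Het 5 (up to 0.0639).

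Of 18 tested ligands of the RGD-binding integrins and of alpha9, 4 were higher, 1 was lower and 13 did not pass, with a median of 0.19. Beside these counts, 2.65 percent of all genes were higher and 2.38 percent lower. Ccn3 (2.13 ± 0.13), Tnc (1.55 ± 0.14), Postn (0.63 ± 0.09) and Mfge8 (0.62 ± 0.08), a secreted ligand of alpha v integrins, were higher. Thbs1, thrombospondin 1, was lower (-0.80 ± 0.14). The Thbs1 call was lost with the sex score (-0.58, adjusted p = 0.230), in the Xist-positive libraries (adjusted p = 0.397) and with the skeletal muscle score (-0.46, adjusted p = 0.413). In the Xist-positive libraries the calls of Mfge8, Postn and Col4a1 were also lost (adjusted p = 0.0703, 0.122 and 0.132). With the skeletal muscle score those of Postn and Col4a1 were lost too, while that of Mfge8 was kept. Within the cell, 26 adhesion complex genes were tested, with a median of -0.01. Of these, 2 were higher, beside 2.65 percent of all genes, and none was lower. The higher ones were Actn1, alpha-actinin 1 (0.57 ± 0.09, adjusted p = 0.00194), and Lims2, the adaptor PINCH2 (0.37 ± 0.09, adjusted p = 0.0195, and 0.0506 without Het 2). With the sex score as covariate Actn1 was at 0.49 (adjusted p = 0.103) and Lims2 at 0.52 (adjusted p = 0.0342). Both calls were lost in the Xist-positive libraries (adjusted p = 0.143 for Actn1 and 0.0900 for Lims2 by edgeR). Both were lost with the skeletal muscle score too. That of Lims2 was also lost with the replicate number or the digit of the column names as covariate, and without WT 1 and WT 2.

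None of 12 integrin-associated membrane proteins passed in edgeR, with a median of -0.03. In that fit 5 (Cd9, Cd81, Sdc4, Plaur and Cav1) had an unadjusted p under 0.05, beside 19.4 percent of all genes. DESeq2 called 1, Cav1, and limma voom 0. The tetraspanin Cd81 was at 1908 ± 242 CPM in Het and 2342 ± 256 CPM in WT (-0.30 ± 0.10, adjusted p = 0.113), and passed without WT 5. The syndecan Sdc4 was at 2063 ± 179 CPM in Het and 1652 ± 440 CPM in WT (0.32 ± 0.15, adjusted p = 0.242).

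Within the 6 Het libraries, the genes whose log2 CPM was most like that of Itga3, among 10492 genes with a mean of at least 5 CPM, were Prpf8, Zranb1 and Trmt13 (Pearson r = 0.982, 0.978 and 0.974). These values describe 6 libraries and the highest of many genes, and none of the 3 passed between Het and WT (adjusted p = 0.844, 0.618 and 0.430).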

How the data were processed

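Per the labels' protocols, total RNA was made into unstranded Nextera XT libraries and sequenced as single reads; the pool was sequenced over separate runs. STAR 2.5.2a and the build GRCm38 are listed in the submitters' processing notes, as are limma, edgeR and DESeq2, with no role. Which counter and annotation were used is not given in the sources used here. Raw deposited counts, made by the authors, are whole numbers per gene; 24 rows that are no mouse gene were left out. A filtered copy of the counts was deposited too and was not used for the tests. A deposited table named as TMM-scaled CPM is a signal on the CPM scale; it gave the members' symbols and served alternative tests with limma.

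Het was tested against WT in all 11 libraries by edgeR 4.0.16's robust quasi-likelihood test (R 4.3.3) after filterByExpr (minimum count 10, minimum total 15) and TMM scaling, with Benjamini-Hochberg adjustment over all genes and a threshold of 0.05. CPM in the text carry these factors, except for Xist and Ddx3y. The SE is the log2 fold change divided by the square root of F, and intervals use its degrees of freedom. Exon lengths and coordinates are those of GENCODE M21 (GRCm38). Ratios were tested by exact permutation (scipy 1.17.1). Levels per kb use the union of exons. Scores used as covariates are means of log2(CPM + 0.5): skeletal muscle and leukocyte scores over their marker lists, and a sex score over 4 Y-linked genes (Uty, Kdm5d, Eif2s3y, Ddx3y) less Xist. The libraries with at least 100 Xist counts are called Xist-positive. Each library was taken as 1 animal; p-values measure the spread between these libraries.

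Alternatives used RLE and upper quartile scaling, other filters, DESeq2 1.42.0, limma 3.58.1, covariates and libraries left out. The members, lists and alternatives were chosen with earlier results of these data known. All members were named, with the passing genes of the other lists (up to 4 of smallest adjusted p) or the 2 most abundant where under 2 passed; Lamb1, Lamc1, Thbs1, Cav1, Cd9, Plaur and the single marker genes were named after their values were seen. Nothing in the labels ties same-numbered libraries to each other.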

Additional observations from a re-analysis of the deposited data

Results flagged for a closer look

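Among 26 sets of values checked, 1 library stood apart from its group by Dixon's criterion, and chance gives about 1 in 20. Itgb3 was at 95.4 CPM in WT 5, while the other 4 WT libraries lay at 66.6 to 74.4 CPM. WT 5 also had the lowest Itga3 and Itgb5 levels of all libraries and the highest sum of fat markers, 2765 CPM, and 27.6 CPM of summed platelet markers, within the WT range of 7.77 to 36.9 CPM. The part of these in the Itgb3 level was not tested.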

How the results depend on the processing

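Across 26 alternatives, Itga3 stayed higher in Het in each, kept its call in 16 and lost it in 10. The other 9 members passed in none of 234 member-by-alternative tests (lowest adjusted p 0.104). The count of members called was 0 with the replicate block, the sex score, the Xist-positive libraries, the skeletal muscle score, the digit of the column names, or without WT 1 and WT 2, and 0 to 1 with 1 library left out. Genes called numbered 1295 with DESeq2, 432 without WT 1 and WT 2, 415 with the digit of the column names, 329 with the replicate block, 123 with the sex score, 64 with the skeletal muscle score and 34 among Xist-positive libraries, and 458 (without WT 2) to 853 with 1 library left out. The cause of each change was not tested.

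Sign changes came without a call: Itga5 ranged from -0.019 (without Het 2) to 0.12 with 1 library left out, and the others were Itga8 -0.0094 with the digit of the column names, Itgav -0.014 with the sex score, -0.0048 in the Xist-positive libraries and -0.22 with the skeletal muscle score, and Itgb5 0.061 without WT 1 and WT 2. The Itgb1 to alpha ratio turned to -0.016 in Xist-positive libraries and -0.012 without WT 1 and WT 2, and ranged from -0.024 to 0.044 with 1 library left out. The ratio of Itgb3 to Itgb5 ranged from -0.15 to 0.10, the highest without WT 5, and was -0.26 without WT 1 and WT 2 and -0.093 in Xist-positive libraries. That of Itga5 to Itga8 ranged from -0.043 to 0.067, and was 0.12 and 0.16 under the same 2 settings. No ratio passed in any of these.

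Same-numbered libraries did not deviate together (correlations -0.21 to 0.06 over 5 pairs, and 1 Het library correlated best with its own number), so the number was not taken as a pairing. Under the replicate block Itga3 stood at 0.50 (adjusted p = 0.168), and the ratio differences were 0.039, -0.087 and 0.060, where 5 pairs allow no p below 0.0625.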
